A study of Mus musculus with 44 samples.

Results

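The windows described here are the start-site windows of mouse HPC7 cells in which H3K4me2 outweighed H3K4me1. A window was taken when its mean H3K4me2 level over the 3 empty-vector libraries was at least 80 CPM (the reads of a window scaled to a common total over all windows of the library) and at least 2 times its mean H3K4me1 level over the 3 empty-vector libraries. The rule chose 439 of 27044 windows (1.62%), and 9.08% of the 4837 windows with at least 80 CPM of H3K4me2. The windows were thus selected on empty-vector values, which are given as a description without a test, while the libraries of wild-type and mutant Snai1 cells were not used by the rule. A CPM ratio sets each mark against its own library and is not a ratio of modified nucleosomes: with TMM-scaled library sizes (trimmed means of log ratios) 1215 windows met the rule, all 439 among them.

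HPC7 is an established mouse haematopoietic progenitor line, here grown with 100 ng/ml stem cell factor, the ligand of the receptor Kit. All cells carried the retroviral MSCV-IRES-GFP vector and were sorted for GFP: the empty-vector (EV) cells with no insert, the wild-type cells (WT) with Snai1 cDNA, and the mutant cells (mut) with Snai1 cDNA whose amino acid 5 was changed from phenylalanine to alanine, which weakens the interaction with Lsd1. Snai1 was thus expressed from a vector and sorted cells were expanded as a bulk population, so that fewer modified nucleosomes per cell and fewer cells with the mark cannot be told apart. Each construct had 3 libraries of H3K4me1 and 3 of H3K4me2, the WT cells also 2 of IgG, and each construct had 4 technical replicates of Snai1 ChIP and 4 of input, given as 1 peak list per construct.

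Counts over the windows summed to 8694515 to 18199945 per H3K4me2 library, 4042976 to 8813537 per H3K4me1 library, and 2714255 and 3355479 in IgG. The lowest count of any of the 439 windows was 502 in an H3K4me2 library and 95 in an H3K4me1 library. Replicate 1 stood apart in every construct and mark: the variance between replicate 1 and replicate 2 or 3 was 9.46 to 16.9 times counting error, against 0.979 to 2.27 between replicates 2 and 3, and EV H3K4me1 replicates 2 and 3, which differed by no more than counting error, were counted as 1 sample in the H3K4me1 test. The other pairs of replicates 2 and 3, at 1.14 to 2.27 times counting error, entered the tests as separate samples although they were closely alike. Results are also given within replicate 1 and within replicates 2 and 3. The labels do not say whether replicates were separate cultures, and p-values measure only the spread between these samples. Of 12 haematopoietic progenitor markers 10 had at least 80 CPM of H3K4me2 with the empty vector (median over the list 159 CPM), against medians of 7.90 CPM for B cell, 5.43 for T cell, 5.43 for epithelial, 7.90 for fibroblast and 3.91 for neuron markers. Erythroid markers were in between, with a median of 40.6 CPM and 1 of 4 above the level (85.2 CPM), and 1 of 4 fibroblast markers also reached it (102 CPM). Myb, Tal1 and Kit were the progenitor markers among the 439.

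Methyl groups on lysine 4 of histone H3 are written by the MLL and Set1 enzymes and removed by the Kdm5 enzymes and by Lsd1, which acts on the mono- and dimethyl forms. H3K4me1 is typical of enhancers and of the flanks of active promoters, H3K4me2 lies at both, and the trimethyl form, which was not measured here, marks the start sites of active genes. Snai1 is a zinc finger repressor that binds E-boxes and recruits Lsd1 through its N-terminal SNAG domain.

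To show what such start sites look like, the 250 bases before the annotated start are printed for 5 members with a promoter in RefSeq (GRCm38.p6): those highest in H3K4me2 among members with a sequence (Irf2bp2, chr8:126593987-126594236, minus strand, and Bcl11a, chr11:24080445-24080694, plus strand), those with the largest ratio (5031425E22Rik, chr5:23433337-23433586, minus strand, and Tgif1, chr17:70853533-70853782, minus strand), and the one beside the strongest WT Snai1 peak among members with a sequence (Rps21, chr2:180257129-180257378, plus strand).
Irf2bp2: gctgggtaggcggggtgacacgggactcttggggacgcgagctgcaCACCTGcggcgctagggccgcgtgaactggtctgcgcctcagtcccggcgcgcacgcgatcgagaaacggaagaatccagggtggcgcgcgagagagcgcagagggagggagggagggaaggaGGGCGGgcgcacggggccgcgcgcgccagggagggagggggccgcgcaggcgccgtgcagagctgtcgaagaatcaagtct
Bcl11a: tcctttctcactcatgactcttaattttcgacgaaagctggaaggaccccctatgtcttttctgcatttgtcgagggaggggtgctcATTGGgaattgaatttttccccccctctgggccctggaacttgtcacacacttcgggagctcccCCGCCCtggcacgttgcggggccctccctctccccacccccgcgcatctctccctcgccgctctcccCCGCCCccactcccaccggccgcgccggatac
5031425E22Rik: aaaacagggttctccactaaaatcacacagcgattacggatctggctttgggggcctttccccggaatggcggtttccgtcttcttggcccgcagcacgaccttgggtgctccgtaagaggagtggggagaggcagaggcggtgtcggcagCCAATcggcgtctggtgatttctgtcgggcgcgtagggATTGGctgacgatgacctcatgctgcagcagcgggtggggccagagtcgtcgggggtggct
Tgif1: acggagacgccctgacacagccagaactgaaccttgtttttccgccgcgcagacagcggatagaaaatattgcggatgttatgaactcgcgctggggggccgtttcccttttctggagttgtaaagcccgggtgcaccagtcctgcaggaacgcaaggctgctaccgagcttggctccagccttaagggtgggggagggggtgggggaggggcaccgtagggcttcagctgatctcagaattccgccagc
Rps21: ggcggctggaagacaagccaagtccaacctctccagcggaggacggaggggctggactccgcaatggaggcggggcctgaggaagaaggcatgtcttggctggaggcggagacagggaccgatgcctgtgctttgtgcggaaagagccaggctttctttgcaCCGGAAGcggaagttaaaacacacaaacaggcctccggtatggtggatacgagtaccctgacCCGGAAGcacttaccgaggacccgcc
Capitals mark matches, on either strand, to 5 motifs that do not contain one another: GGGCGG (the GC box of SP and KLF factors), CCAAT (NF-Y), CCGGAAG (ETS factors), CAGGTG (the E-box bound by Snai1) and TATAAA (the TATA box). Of all 27025 promoters in the table, 32.9% hold GGGCGG in these 250 bases, 34.5% CCAAT, 7.05% CCGGAAG, 17.1% CAGGTG and 13.0% TATAAA. Irf2bp2 had 1 GC box and 1 CAGGTG, Bcl11a 2 GC boxes and 1 CCAAT, 5031425E22Rik 2 CCAAT and Rps21 2 CCGGAAG, and none of these motifs occurred in the 250 bases printed for Tgif1. Tgif1 has 5 annotated starts and Rps21 has 2, and only the bases before the first-listed start are printed. GC content ran from 59.6% (Tgif1) to 71.6% (Irf2bp2), and CpG numbers from 15 (Tgif1 and Rps21) to 32 (Irf2bp2). Only 305 of the 439 (69.5%) had a promoter in the table, so base composition and motif shares over the members are void and not given.

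The members differed from other H3K4me2-rich start sites more in their low H3K4me1 than in their high H3K4me2. With the empty vector the rule leads to this, since both sets had the same floor of 80 CPM of H3K4me2 and were split by the ratio. The WT and mutant values tell whether that order was kept, and are not a separate trait of these windows. In WT libraries the median member carried 121 CPM of H3K4me2 (quartiles 101 and 156, range 69.7 to 311) and 54.3 CPM of H3K4me1 (44.5 and 69.1, range 26.0 to 165). The 4398 windows with at least 80 CPM of H3K4me2 and a ratio under 2 with the empty vector had medians of 101 and 83.7 CPM. In mutant libraries the members had medians of 117 CPM of H3K4me2 and 51.5 CPM of H3K4me1, and the 4398 windows 99.6 and 82.8 CPM. The order of the sets was thus the same in the WT and the mutant cells.

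IgG gave a median of 41.6 CPM over the members, 44.9 over the 4398 windows and 39.0 over all windows. Set against it, the median ratio of WT H3K4me2 over IgG was 3.23 for members and 2.26 for the 4398 windows, and that of WT H3K4me1 over IgG 1.38 and 1.84. On column totals members thus stood further above IgG in H3K4me2, and less far in H3K4me1, than the other H3K4me2-rich windows. The rule had split these sets along this order. Over all windows the same median ratios were 0.233 and 0.691, so on this scale IgG is not the floor of either mark. Of 439 members, 438 were higher in H3K4me2 than in IgG in WT cells (edgeR's quasi-likelihood test, Benjamini-Hochberg over all windows, 90.8% of all 26305 windows tested called in either direction and 35.2% higher), with a median log2 difference of 1.69. The exception was Smad1, the transcription factor of BMP signalling (0.46, SE 0.35, adjusted p = 0.221). With the replicate number as a block, or with TMM, 439 of 439 passed, Smad1 included, and 98.0% of the 4398 windows were called higher without the block. TMM moved the members' median log2 difference to 2.45, so the height above IgG depends on the scaling.

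**Figure D1:**
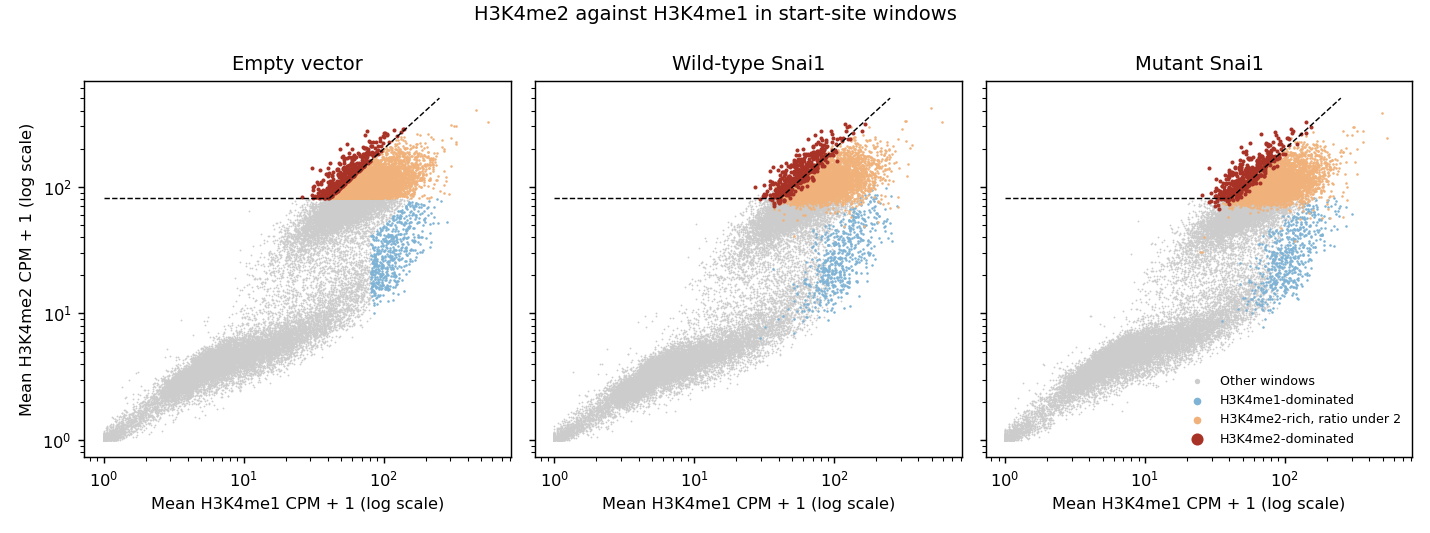
Mean H3K4me2 against mean H3K4me1 CPM + 1 of all windows (log axes) in EV, WT and mutant libraries, with the 2 thresholds as dashed lines, members in red, other H3K4me2-rich windows in orange and H3K4me1-dominated windows in blue. The red points keep to the upper left edge of the orange cloud in WT and mutant libraries, where 101 (WT) and 82 (mutant) members lie under a ratio of 2.

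The dominance of H3K4me2 was kept in libraries the rule did not use. The median ratio of H3K4me2 to H3K4me1 CPM in replicates 1, 2 and 3 was 2.23, 2.31 and 2.24 in WT and 2.31, 2.28 and 2.28 in mutant cells, where the EV libraries that chose the windows had 2.18, 2.42 and 2.34. In the 4398 windows the median was 1.25 to 1.30 in all 9 pairs of libraries, and over all windows 0.692 to 0.824. H3K4me2 exceeded H3K4me1 in all 439 members in every pair but WT replicate 1, where it did in 438. A ratio of 2 or more was kept by 316, 336 and 328 members in the 3 WT pairs and by 321, 329 and 341 in the 3 mutant pairs. Across the 439 members the WT and mutant ratios had a Spearman correlation of 0.819, given as a description since the windows share their libraries.

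**Figure D2:**
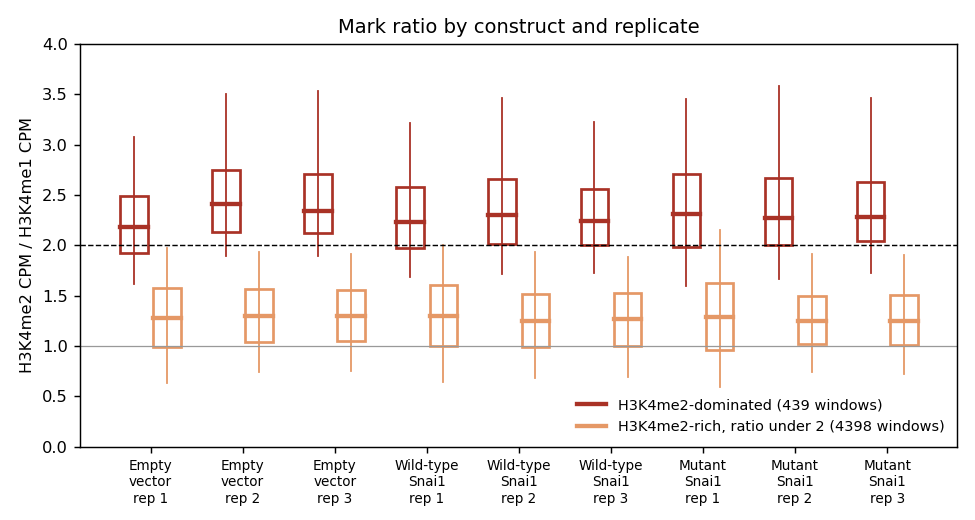
Ratio of H3K4me2 to H3K4me1 CPM by construct and replicate, for members (red) and the other H3K4me2-rich windows (orange): boxes are quartiles, thick lines medians, thin lines the 5th to 95th percentiles, and the dashed line is a ratio of 2. Member medians lie between 2.18 and 2.42 in all 9 pairs, those of the other windows between 1.25 and 1.30.

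Applied to WT means, the same rule chose 444 windows, of which 333 were members (75.9% of the members and 75.0% of that list). Applied to mutant means it chose 418, of which 340 were members (77.5% and 81.3%). Both held for 301 members (68.6%), 32 held it only in WT and 39 only in mutant cells, and 67 (15.3%) held it in neither. Members that left the list left mostly on the ratio (101 in WT and 82 in mutant cells) and few on the level (14 and 21), and none fell below a ratio of 1.52 in WT or 1.63 in mutant cells. Many members lay near the line, 113 with an EV ratio between 2 and 2.1 and 33 with a ratio of at least 3. Just inside the ratio were Cops5, Zfp830 and Gnl1 (2.001 each) and just outside Cxxc4, Selenof and 4930509E16Rik (1.999 each). Just inside the level were Mir191, Fam181b and Zbtb44 (80.38, 80.40 and 80.44 CPM) and just outside Fig4, Rrs1 and Ncapg (79.83, 79.33 and 79.09 CPM).

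Tested window by window, the members carried more H3K4me2 than H3K4me1 in both Snai1 constructs. In WT cells 438 of 439 passed edgeR's quasi-likelihood test (60.8% of all 26305 windows called in either direction and 22.2% higher; 49.4% of the 4398 windows higher), with a median log2 difference of 1.17 and a range of 0.60 to 2.02. In mutant cells 439 of 439 passed (52.4% of all windows called in either direction and 21.3% higher; 47.8% of the 4398 higher), with a median of 1.17 and a range of 0.70 to 2.33. The WT exception, named after its value was seen, was the long non-coding RNA gene G630025P09Rik on chromosome 11 (log2 0.60, SE 0.306, adjusted p = 0.0982), with ratios of 0.908, 2.1 and 1.76 in replicates 1 to 3, so that replicate 1 alone had more H3K4me1. With the replicate number as a block 439 of 439 passed in WT cells too.

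These differences are on column totals, on which the median over all windows was -0.54 in WT and -0.31 in mutant cells. TMM factors moved the WT median to -0.27 and DESeq2 size factors to 0.03, and in mutant cells to -0.14 and 0.08. The split of windows called higher and lower went with it, from 5843 and 10143 in WT cells to 7753 and 8139 with TMM and 8866 and 6160 with DESeq2 size factors, and in mutant cells from 5609 and 8179 to 6811 and 7361 and to 7697 and 6245. The members' median was 1.44 and 1.74 in WT under these scalings, with 439 of 439 called in each. Without replicate 3 of every group 3667 windows were called higher in WT cells.

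The 12 members with the most H3K4me2 were Kdm6b, Irf2bp2, Bcl11a, Pbx2, Ppp1r18, Ccnd2, Neat1, Ikzf2, Ptch1, Malat1 and 2 gene IDs without a symbol. Kdm6b (gene at chr11:69398508-69420367, GRCm38), whose product removes methyl groups from lysine 27 of histone H3, carried 271, 286 and 273 CPM of H3K4me2 in WT replicates 1 to 3 and 272, 187 and 189.9 in the mutant ones. Its H3K4me1 was 190.0, 147 and 137 CPM in WT and 213, 71.3 and 78.2 in mutant cells, high in both replicates 1, and its log2 difference between marks was 0.81 in WT (SE 0.321, adjusted p = 0.039). Irf2bp2, which encodes a corepressor of the interferon regulatory factor Irf2 and whose promoter is printed above, had 364, 233 and 227 CPM of H3K4me2 in WT and 366, 300.1 and 306 in mutant cells. Its mutant replicates 2 and 3 lay above their WT counterparts while the 2 replicates 1 were alike. Irf2bp2 lies on chromosome 8, whose windows as a whole leaned to the mutant in H3K4me2 of replicates 2 and 3. The median log2 of WT over mutant was -0.269 over 796 windows of that chromosome. Irf2bp2 H3K4me1 was 184, 86.5 and 88.1 CPM in WT and 196, 107 and 116 in mutant cells. Replicate 1 was the highest Irf2bp2 library of each construct in both marks.

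Bcl11a, the zinc finger repressor of fetal globin genes and a factor of lymphoid development, had 290.5, 269 and 265 CPM of H3K4me2 in WT and 298, 239 and 236 in mutant cells. Its H3K4me1 was 102, 70.3 and 67.3 CPM in WT and 89.2, 54.8 and 55.9 in mutant cells, so that the marks did not overlap in any of these libraries (log2 1.78 in WT, SE 0.215, adjusted p = 4.86e-06; 1.94 in mutant cells). Pbx2, a homeodomain partner of Hox and Meis proteins, had 305, 318 and 309 CPM of H3K4me2 and 207, 146 and 142 CPM of H3K4me1 in WT cells. Its H3K4me1 stood highest in replicate 1, and the log2 difference of 0.91 (adjusted p = 0.0104) was below the members' median. Ccnd2, the gene of cyclin D2, had 258, 238 and 228 CPM of H3K4me2 and 138, 96.8 and 91.4 CPM of H3K4me1 in WT cells. Ptch1, the Hedgehog receptor gene, had 266, 272 and 247 CPM of H3K4me2 and 110.0, 88.7 and 87.2 CPM of H3K4me1. All of these genes passed the test in both constructs, as did Neat1 and Malat1, neighbours on chromosome 19 that encode long RNAs of nuclear paraspeckles and speckles. Neat1 had 252, 232 and 233 CPM of H3K4me2 in WT cells against 136, 87.5 and 88.6 CPM of H3K4me1. Malat1 had 238, 232 and 242 CPM of H3K4me2 against 117, 129 and 124 CPM of H3K4me1, with no excess in replicate 1. Ppp1r18 had 319, 308 and 304 CPM of H3K4me2 in WT cells against 126, 116 and 112 CPM of H3K4me1.

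The members with the largest ratios ranged from windows with little H3K4me1 to windows above the member median in both marks, such as Tgif1. The long non-coding RNA gene 5031425E22Rik, which starts beside Kmt2e, had 150.3, 135 and 142 CPM of H3K4me2 and 31.5, 35.4 and 38.9 CPM of H3K4me1 in WT cells, and 154, 133 and 129 against 25.1, 30.1 and 27.7 in mutant cells. The ratio of means was 4.64 with the empty vector, 4.04 in WT and 5.01 in mutant cells. H3K4me1 of 5031425E22Rik was 25.1 to 38.9 CPM in these 6 libraries, and its IgG 34.3 and 29.5 CPM. These values do not place its H3K4me1 at background, since each CPM is on its own library total. The 1482 olfactory and vomeronasal receptor windows had a median of 2.85 CPM of H3K4me1 with the empty vector. Tgif1, a homeobox corepressor of TGF-beta signalling, had 278, 244 and 246 CPM of H3K4me2 and 85.6, 66.9 and 64.8 CPM of H3K4me1 in WT cells, and 283, 194 and 191 against 87.4, 38.5 and 38.8 in mutant cells. Its mutant replicates 2 and 3 were lower than the WT ones in both marks, and the ratio was 3.53 in WT and 4.05 in mutant cells. Tgif1 lies on chromosome 17, whose windows as a whole were lower in mutant replicates 2 and 3. Their median log2 of WT over mutant was 0.403 in H3K4me2 and 0.357 in H3K4me1. Sox4, a transcription factor of progenitors, had 158, 131 and 117 CPM of H3K4me2 and 42.8, 38.2 and 35.0 CPM of H3K4me1 in WT cells. Hmga2, an architectural chromatin protein gene, had 199.9, 199.8 and 197 CPM of H3K4me2 and 54.9, 61.6 and 59.0 CPM of H3K4me1.

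Snord47, a small nucleolar RNA made from an intron of Gas5, had 169, 152 and 166 CPM of H3K4me2 and 42.9, 55.6 and 52.7 CPM of H3K4me1 in WT cells. A gene end of Snord47 and the starts of Gas5 and Zbtb37 lay within 5 kb of each other. Their windows may thus rest in part on the same reads, which cannot be told without window coordinates. By the log2 difference between marks in WT cells, Mir378a (1.96), Tsc22d2 (1.87, SE 0.118, adjusted p = 7.76e-09), Tgif1 (1.82), Sox4 (1.81), Bcl11a (1.78) and Hmga2 (1.77) were the highest named genes outside the predicted ones. Mylip (0.71), a ubiquitin ligase of the LDL receptor, Msi2 (0.70), an RNA-binding protein of blood stem cells, and Ccdc25 (0.68) were the lowest, and all 3 passed.

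**Figure D3:**
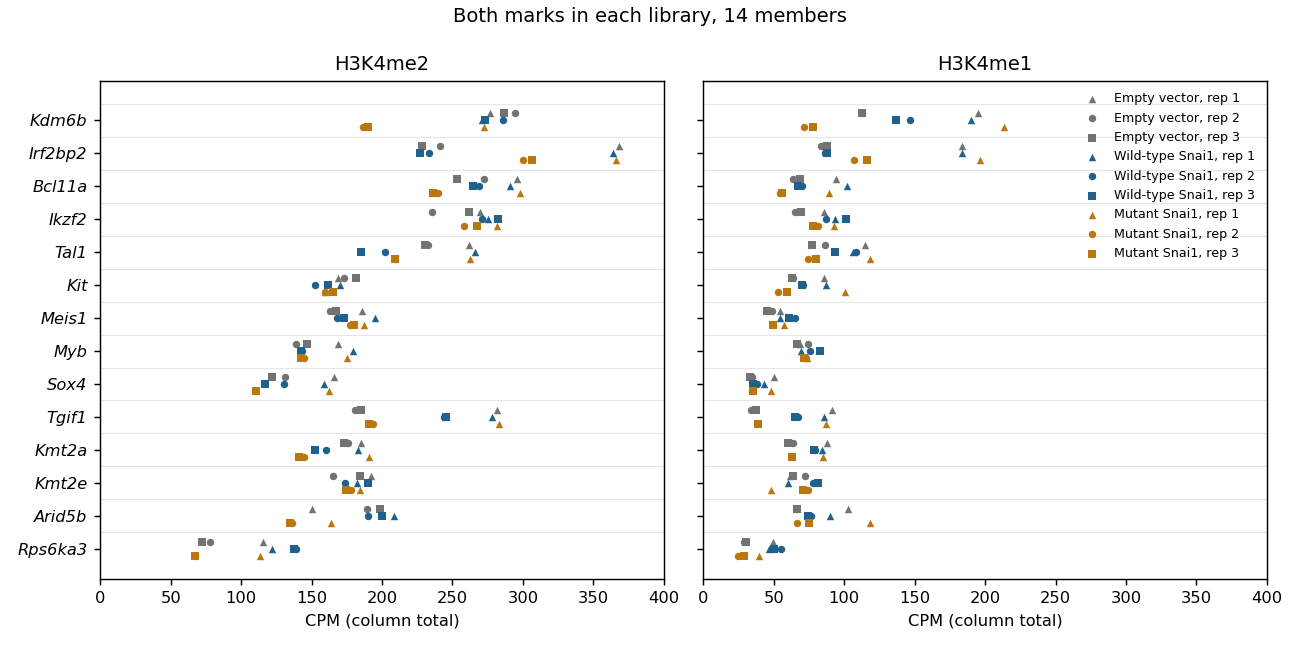
CPM of H3K4me2 (left) and H3K4me1 (right) in each library for 14 members, with triangles for replicate 1, circles for replicate 2 and squares for replicate 3, and grey, blue and orange for EV, WT and mutant cells. Bcl11a, Ikzf2 and Meis1 lie far lower in H3K4me1 than in H3K4me2 in all 9 pairs of libraries, and for Irf2bp2 the triangles stand apart to the right in both marks.

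Genes of blood stem and progenitor cells were among the members. Of 26 such genes 18 were H3K4me2-rich and 6 were members (33.3% of the rich ones, against 9.08% of all H3K4me2-rich windows). The other 12 rich genes were not members, and 1 gene of the list was H3K4me1-dominated. The median ratio of the 18 was 1.45 in WT and 1.56 in mutant cells, against 1.32 and 1.31 for all H3K4me2-rich windows. The list as a whole was thus not dominated by H3K4me2 in the sense of the rule. Ikzf2 (chr1:69531207-69687351), which encodes the Ikaros family protein Helios, had 275, 271 and 282 CPM of H3K4me2 and 93.2, 87.1 and 102 CPM of H3K4me1 in WT cells, and 282, 258 and 268 against 92.8, 81.6 and 77.7 in mutant cells. The 2 marks lay far apart in every library (log2 1.56 in WT, SE 0.13, adjusted p = 1.18e-07, and 1.68 in mutant cells). Kit (chr5:75574987-75656722), the stem cell factor receptor, had 169.9, 152 and 162 CPM of H3K4me2 in WT and 159.7, 159.5 and 165 in mutant cells. Its H3K4me1 was 86.8, 70.9 and 69.8 CPM in WT and 101, 53.3 and 59.1 in mutant cells, and the constructs overlapped in both marks.

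Tal1 (chr4:115056426-115071755), a transcription factor required for all blood lineages, had 266, 202 and 185 CPM of H3K4me2 in WT and 263, 209 and 209 in mutant cells. Its H3K4me1 was 106, 108 and 93.8 CPM in WT and 118, 74.3 and 79.9 in mutant cells, below every H3K4me2 library. Meis1 (chr11:18880428-19019651), a homeobox factor of stem cells, had 195, 168 and 173 CPM of H3K4me2 in WT and 187, 177 and 179.9 in mutant cells. Meis1 H3K4me1 was 54.6, 65.3 and 60.7 CPM in WT and 57.3, 49.6 and 49.5 in mutant cells, also below every H3K4me2 library. Myb, a factor that keeps progenitors dividing, had a log2 difference between marks of 1.03 in WT and 1.08 in mutant cells, and Bmi1, a Polycomb protein of stem cell renewal, 1.30 and 1.27.

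Enzymes of H3K4 methylation were themselves among the members, 5 of 15 H3K4me2-rich genes in a list of 22. They were the methyltransferase genes Kmt2a, Kmt2c and Kmt2d, their relative Kmt2e, and the demethylase gene Kdm5b. Kmt2a (chr9:44803355-44881352), the MLL gene of leukaemia translocations, had 183, 160.1 and 152 CPM of H3K4me2 and 84.2, 79.2 and 78.6 CPM of H3K4me1 in WT cells (log2 1.03, and 1.18 in mutant cells). Kmt2e, whose window shares its start region with 5031425E22Rik, had 182, 174 and 190.3 CPM of H3K4me2 and 60.2, 77.8 and 81.6 CPM of H3K4me1 (log2 1.32 and 1.48), and Kdm5b had log2 differences of 1.03 and 0.99. Of 13 genes of the Lsd1 complex, 6 were H3K4me2-rich and 2 were members: Rcor3, a CoREST protein (1.25 in WT and 1.09 in mutant cells), and Phf21a, a reader of unmethylated H3K4 (0.98 and 1.13). All 7 genes passed the test in both constructs.

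Genes of short and non-coding transcripts made up a larger share of the members than of the other H3K4me2-rich windows. Protein-coding genes were 78.1% of the members and 92.6% of the 4398 windows, long non-coding RNA genes 11.4% and 4.37%, small nucleolar RNA genes 2.28% and 0.318%, and miRNA genes 2.05% and 0.250%. Of 31 H3K4me2-rich windows of small nucleolar RNAs and their hosts 12 were members (38.7%), of 21 miRNA windows 9 (42.9%), and of 11 windows of replication-dependent histones 5 (45.5%). The histone genes were H4f16, H2bc21, H3c8, H2ac10 and H1f1. H3c8 (chr13:23535418-23535909), which encodes histone H3, had 102, 116 and 121 CPM of H3K4me2 and 45.2, 39.8 and 42.4 CPM of H3K4me1 in WT cells, and 94.4, 109 and 109 against 44.1, 32.5 and 34.9 in mutant cells. Its marks did not overlap in any of these libraries, and its window lies within 5 kb of that of H2ac10.

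The miRNA members were Mir378a, Mir5123, Mir21a, Mir1931, Mir16-2, Mir15b, Mir3069, Mir3091 and Mir191, and 8 of the 9 were matched in the RefSeq hairpin table used here. Mir15b and Mir16-2 form 1 cluster inside Smc4, itself a member, and their main mature strands share a seed (bases 2 to 8, in capitals), shown here beside that of Mir21a, an miRNA of many growing cells.
miR-15b-5p: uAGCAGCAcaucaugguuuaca
miR-16-5p: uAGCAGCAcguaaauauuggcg
miR-21a-5p: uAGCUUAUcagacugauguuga
Mir15b (chr3:69009775-69009796 for the mature strand) had 98.0, 96.2 and 93.1 CPM of H3K4me2 and 30.5, 45.1 and 53.7 CPM of H3K4me1 in WT cells, and Mir16-2 had 96.5, 95.6 and 92.6 CPM of H3K4me2 and 32.8, 49.3 and 57.2 CPM of H3K4me1. The near equal values are those of overlapping windows and not of 2 measurements. Mir21a (chr11:86584120-86584141) had 108, 105 and 116 CPM of H3K4me2 and 36.0, 35.0 and 30.2 CPM of H3K4me1 in WT cells and 115, 106 and 111 against 39.4, 26.9 and 33.1 in mutant cells.

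Members were also counted in lists of transcription factors, chromatin proteins and signalling inhibitors, which were made after the members were seen. The shares in these lists may be raised by that choice and are given as a description only. Of 157 H3K4me2-rich windows of transcription factor families 44 were members (28.0%), among them Myc, Mycn, Foxo1, Foxo3, Bcl6, Cux1, Zeb2, Rel, Cebpd, Hoxa3 and Hoxa6. Of 70 rich windows of chromatin remodelling and Polycomb genes 27 were members (38.6%), among them Brd2, a reader of acetylated histones, and Arid1a, a subunit of the BAF remodeller. Brd2 had 312, 289 and 278 CPM of H3K4me2 and 133, 119 and 116 CPM of H3K4me1 in WT cells, and Arid1a had 228, 265 and 229 CPM of H3K4me2 and 107, 93.0 and 90.3 CPM of H3K4me1. Of 33 rich windows of feedback inhibitors of signalling 10 were members (30.3%): Dusp4, Dusp6 and Dusp10, which encode MAP kinase phosphatases, Smad7, Spry2, Spred1, Tob2, Ier2, Ier5 and Cdkn2c. Dusp4 had 274, 188 and 186 CPM of H3K4me2 in WT and 269, 253 and 238 in mutant cells, where replicates 2 and 3 were higher and replicate 1 was not. It lies on chromosome 8, whose windows leaned the same way in replicates 2 and 3 (median log2 of WT over mutant -0.269).

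Classes of housekeeping genes ranged from no member to shares above 9.08%. None of 33 rich windows of respiratory chain and ATP synthase genes, 32 of translation factors, 13 of tRNA synthetases and 7 of nuclear pore genes was a member. RNA polymerase subunits gave 2 of 12 (16.7%: Polr2l and Polr2h), mediator and TFIID 1 of 15 (Taf11) and DNA replication 1 of 16 (Pole). There were 3 members among 73 spliceosome and RNA-binding genes (Hnrnpd, Srsf2 and Hnrnpa0), 1 among 37 chaperonins and heat shock genes (Dnajc2), 1 among 18 mitochondrial ribosomal proteins (Mrpl34), 3 among 52 ubiquitin conjugation genes and 3 among 62 RAB and vesicle coat genes. Cytoplasmic ribosomal proteins gave 7 of 41 (17.1%: Rpl7, Rps21, Rpl36a, Rps27a, Rpl28, Rps13 and Rps12), the proteasome 3 of 11 (Psmb3, Psmb1 and Psmc2) and cyclins and CDKs 4 of 24 (Ccnd2, Cdk6, Cdk12 and Cdk13). Cdk6, the partner of D cyclins, had 201, 193 and 194 CPM of H3K4me2 and 70.0, 85.7 and 81.8 CPM of H3K4me1 in WT cells. Of 1482 olfactory and vomeronasal receptor windows none was H3K4me2-rich. Zinc finger genes gave 11 of 90 (12.2%), and predicted genes 45 of 252 (17.9%). The classes overlap, their sizes differ, and no test of these shares was made.

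**Figure D4:**
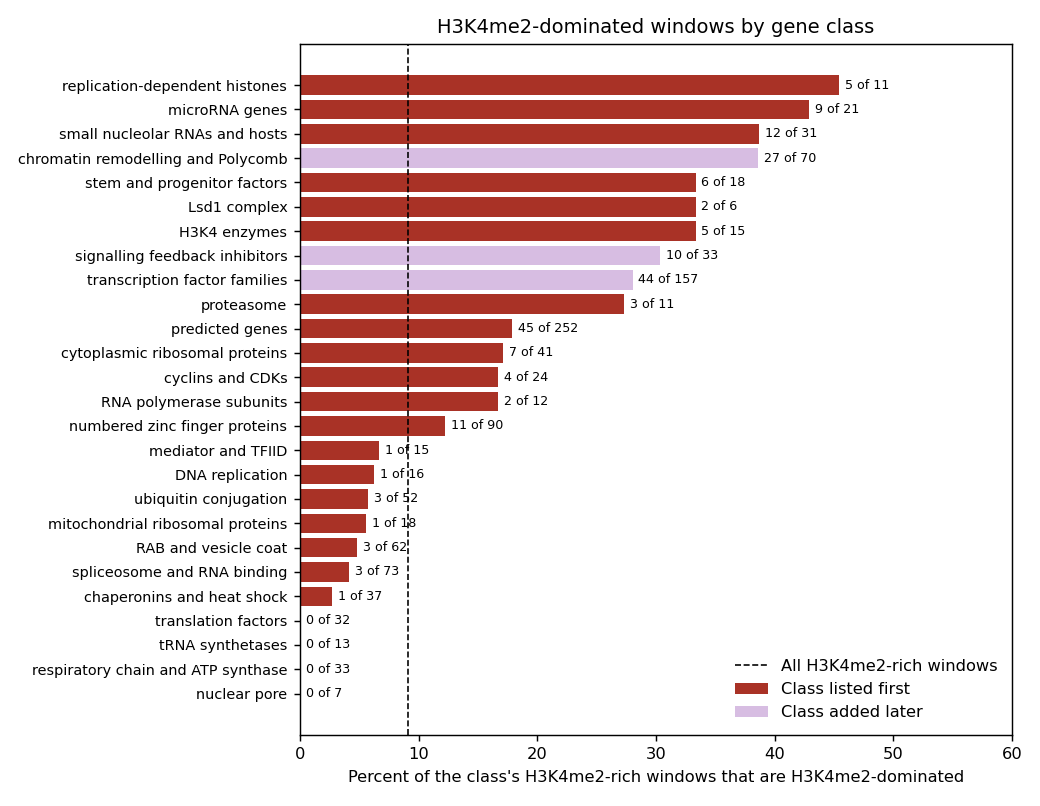
Share of each class's H3K4me2-rich windows that are members, with the counts beside the bars and 9.08%, the share over all H3K4me2-rich windows, as a dashed line. Histones, miRNAs and small nucleolar RNAs lie at 38.7 to 45.5% and 4 classes at 0, while several classes near the line hold under 20 rich windows. Chromatin genes (38.6%), transcription factors and feedback inhibitors, in paler bars, are lists made after the members were seen.

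The 439 windows were not 439 separate places. Of the 416 members matched to a gene with coordinates, 88 had a start (or, where no strand was known, a gene end) within 1 kb of that of another member, in 44 pairs, and 138 within 5 kb, in 68 groups of up to 3, which leaves 372 and 346 start regions. Pairs included 5031425E22Rik and Kmt2e, Rps21 and Mir3091, Zeb2 and Zeb2os, Ift80 and Smc4, Dnajc2 and Psmc2, and Gas5 and Zbtb37. Members lay on every chromosome but Y, from 0.516% of the windows of chromosome X to 3.19% of those of chromosome 13. Their genes had a median length of 19.8 kb (quartiles 4.20 and 65.9 kb), against 21.3 kb (9.44 and 47.4 kb) for the 4398 windows, so their lengths spread wider to both sides.

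Whether the Lsd1-binding change in Snai1 alters these windows was asked by comparing WT with mutant libraries. No member differed in H3K4me2 or in H3K4me1 by edgeR's quasi-likelihood test over all 3 replicates: 0 of 439 passed in H3K4me2 (0% of 25742 windows, smallest adjusted p of a member 0.503) and 0 of 439 in H3K4me1 (0% of 25728 windows, 0.889). Unadjusted p-values under 0.05 were found for 25 members in H3K4me2 (5.70%, against 9.90% of all windows) and for 3 in H3K4me1 (0.683%, against 5.24%). DESeq2 called no member in either mark, and 71 and 31 of all windows. The median log2 difference, WT minus mutant, was 0.16 in H3K4me2 with 396 members above 0, and 0.10 in H3K4me1 with 335 above 0, while over all windows it was -0.04 and -0.01. The 4398 windows leaned the same way, with medians of 0.12 and 0.05 and 3483 and 2781 windows above 0. Of all windows tested, 45.7% and 47.9% lay above 0. On column totals without TMM the member medians were 0.08 and 0.09, and those of all windows -0.13 and -0.04. The mark balance, the H3K4me2 to H3K4me1 difference in WT minus that in mutant cells, passed for 0 of 439 members (0% of 26305 windows, smallest adjusted p 1). Its median was -0.01 and 2 members had an unadjusted p under 0.05, with no call by DESeq2.

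The small excess in WT cells stood in replicates 2 and 3 and not in replicate 1. Within replicate 1 the member median of log2 WT over mutant (TMM-scaled CPM + 1) in H3K4me2 was -0.101, within replicates 2 and 3 it was 0.314, and 13.9% of members had the same sign in both. In H3K4me1 it was -0.171 and 0.249, with 22.6% of the same sign. The 4398 windows showed the same pattern, -0.0978 and 0.239 in H3K4me2 and -0.215 and 0.195 in H3K4me1. On TMM-scaled CPM, libraries of WT and mutant cells did not overlap for 15 members in H3K4me2 (9 higher and 6 lower in WT, 3.42% against 9.11% of all windows) and for 20 in H3K4me1 (17 and 3, 4.56% against 8.55%). Without mutant H3K4me2 replicate 1, 198 members passed as higher in WT (4289 windows in all), and with replicates 2 and 3 alone 366 members passed in H3K4me2 (350 higher and 16 lower, 15022 windows in all) and 233 in H3K4me1 (225 and 8, 10145 in all). In the first of these fits construct and batch are partly confounded, and replicates 2 and 3 alone varied by 0.979 to 2.27 times counting error (2.27 in WT H3K4me2). Without replicate 1 the mark balance passed for 32 members, 10 higher and 22 lower in WT (1409 windows in all).

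Within replicates 2 and 3 members on chromosomes 2, 8, 17, 19 and X lay apart from the member median of 0.314. Chromosome medians below are over windows with a mean of at least 5 CPM over the 9 libraries of the mark. The median of log2 WT over mutant in H3K4me2 was 0.531 for the 21 members on chromosome 17, where the 861 such windows of that chromosome had 0.403, and -0.228 for the 15 members on chromosome 8, where its 796 windows had -0.269. The 26 members on chromosome 2 had 0.0298, where its 1210 windows had -0.062. For the 20 members on chromosome 19 it was 0.0994, where its 548 windows had -0.0362. The 6 members on chromosome X, chosen after their values were seen (Huwe1, Bcorl1, Rps6ka3, Bcor, Tmsb4x and Rpl36a), had 0.971, where the 386 windows of X had 0.254. Over all windows, with no minimum and all chromosomes, the median was -0.0803. Measured from the median of their own chromosome, the 416 members with a chromosome had a median of 0.096 in H3K4me2 (338 above it) and of 0.191 in H3K4me1 (355 above it). What part the chromosomes have in these values was not tested.

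**Figure D5:**
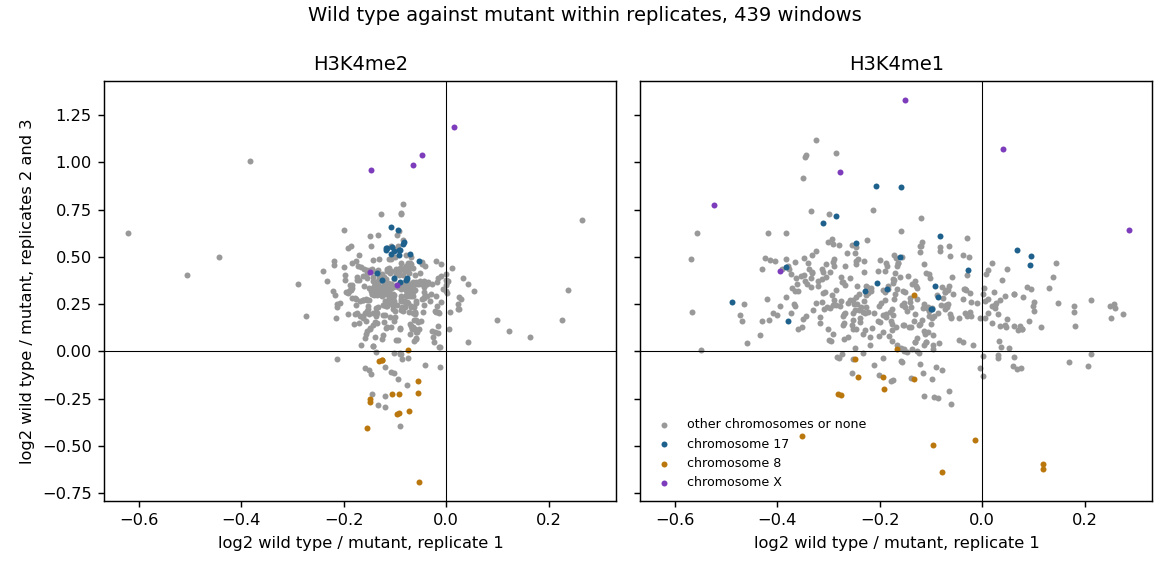
log2 of WT over mutant TMM-scaled CPM + 1 in replicate 1 (horizontal) and in replicates 2 and 3 (vertical) for the 439 members, H3K4me2 left and H3K4me1 right, with chromosomes 17, 8 and X coloured. Most points lie left of 0 and above 0; those of chromosome 8 lie mostly below 0 on the vertical axis and those of chromosome X from 0.349 to 1.19 in H3K4me2.

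The members with the smallest p-values for WT against mutant did not pass. In H3K4me2, Arid5b (chr10:68092523-68279355), a DNA-binding cofactor of a histone demethylase, had 208, 190.3 and 200.1 CPM in WT and 164, 136 and 134 in mutant cells (log2 0.54, SE 0.143, adjusted p = 0.503, edgeR), and every WT library lay above every mutant one. Rps6ka3 (chrX:159255665-159368244), the kinase RSK2 gene on chromosome X, had 122, 139 and 138 CPM in WT and 114, 67.0 and 67.5 in mutant cells (log2 0.74, SE 0.237, adjusted p = 0.503, edgeR). The gap was wide in replicates 2 and 3 and narrow in replicate 1, as it was for Huwe1, a ubiquitin ligase gene on X (118, 133 and 140.3 against 115, 72.4 and 76.0 CPM). AI504432, the fourth, had 204, 232 and 237 against 204, 157 and 160.0 CPM, nearly equal in replicate 1. On the lower side were Zfp661 (96.3, 89.6 and 97.6 against 100.5, 126 and 120.1 CPM), Otx1 (96.3, 68.2 and 58.5 against 96.8, 90.3 and 97.8), Ap3m2 (190.3, 124 and 119 against 200.2, 185 and 179) and Smad1 (112, 60.2 and 49.4 against 109, 99.4 and 101), the last 2 on chromosome 8. For these, replicate 1 again differed little between the constructs.

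In H3K4me1 the 4 members with the smallest p above 0 were Huwe1 (40.7, 39.2 and 43.9 CPM in WT against 29.3, 32.0 and 25.2 in mutant cells, log2 0.53, SE 0.197, adjusted p = 0.889, edgeR), Rps6ka3 (46.3, 55.4 and 50.0 against 39.7, 24.3 and 29.2), Snord47 (42.9, 55.6 and 52.7 against 37.3, 43.1 and 41.8) and Tbp, the TATA-binding protein gene (91.6, 98.0 and 103 against 75.6, 76.7 and 76.4). The libraries of the constructs did not overlap for Huwe1, Rps6ka3 and Tbp, and for Snord47 they overlapped narrowly on these CPM and did not on TMM-scaled CPM. The 4 below 0 were Nae1, a subunit of the NEDD8-activating enzyme (54.5, 32.3 and 38.5 against 50.8, 62.1 and 59.1 CPM), Ing2, Trappc11 and Rwdd4a, all on chromosome 8, where Trappc11 and Rwdd4a share a start region. For the mark balance, Arid5b had the smallest p of a positive difference (log2 0.58, SE 0.264), followed by Kmt5b, N4bp2 and AI504432, and Mllt3, a subunit of elongation complexes, that of a negative one (log2 -0.40, SE 0.172), with Ap3m2, Snord45b and Fkbp14. The edgeR adjusted p was 1 for each of these 8.

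Snai1 peaks lay near many members, in particular in the mutant list. Of the 416 members with coordinates, 57 (13.7%, exact Clopper-Pearson 95% interval 10.6 to 17.4%) had a WT peak within 5 kb of an annotated start, or of either gene end where no strand was known. A mutant peak was that near 237 (57.0%, 52.1 to 61.8%), and an EV peak near 2, Glul and Polr2l. For the 4398 other H3K4me2-rich windows the shares were 18.8% and 59.1%, and for all windows 6.83% and 25.8%. Within 5 kb the WT share of members was thus below that of other H3K4me2-rich windows. The mutant share of those other windows lay within the interval of the members. No test was made, and the intervals cover counting error only. Of the members 54 had both kinds of peak, 3 only a WT peak and 183 only a mutant peak. The WT list holds 2929 peaks and the mutant list 12037, 1 list for each construct without replicates, so lists of this size differ in how many windows they reach. With a -log10 q of at least 10 the members near a peak numbered 29 (6.97%) in the WT and 121 (29.1%) in the mutant list. The shares were then 8.48% and 32.6% for the 4398 windows and 2.91% and 13.0% for all windows. Within 1 kb a WT peak lay near 10.1% of the members and 12.8% of the 4398 windows. No interval was computed at these settings, so the lower WT share of members is given for 5 kb only.

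The 6 members nearest to the strongest WT peaks were H2bc21 (chr3:96220974-96221632, 19.8-fold over local background in the authors' list, mutant 16.0-fold), Rps21 and Mir3091, which share a peak (chr2:180256480-180257224, 16.5-fold, mutant 6.95-fold), Ccdc25 (14.3-fold, mutant 49.0-fold), Spry2 (13.8-fold at chr14:105898384-105898868, with the mutant peak of 4.96-fold at another place, chr14:105894937-105895322) and BC037704 (11.6-fold, mutant 12.9-fold). The WT peak of Rps21 reaches into the first bases of the promoter printed above and ends before its 2 CCGGAAG, and the mutant peak covers the whole of it (chr2:180257050-180257411). Irf2bp2 had a mutant peak (chr8:126594113-126594434, 4.08-fold) over the part of its printed promoter that holds CAGGTG, and no WT peak within 5 kb. Kmt2e and 5031425E22Rik shared a WT peak of 6.90-fold (chr5:23433970-23434290, mutant 15.5-fold) beyond the printed bases. Ikzf2 (9.78-fold, mutant 8.03-fold) and Kit (10.2-fold, mutant 11.1-fold) had peaks of both kinds, Tgif1 and Sox4 a mutant peak only (5.39- and 6.12-fold), and Bcl11a none within 5 kb.

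Members with and without a peak had medians close to one another in the marks. The median H3K4me2 to H3K4me1 ratio in WT cells was 2.21 for the 57 members near a WT peak, 2.17 for the 183 near a mutant peak only, and 2.32 for the other 199, among them 23 without coordinates. In mutant cells it was 2.26, 2.22 and 2.36. The median log2 difference of H3K4me2, WT minus mutant, was 0.14, 0.16 and 0.17 in the same order, and that of H3K4me1 0.07, 0.11 and 0.10. H2bc21, beside the strongest WT peak, had 117, 103 and 109 CPM of H3K4me2 in WT and 111, 93.9 and 94.3 in mutant cells, and Rps21 had 112, 128 and 134 CPM in WT and 116, 117 and 118 in mutant cells, with overlap between the constructs for both genes.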

How the data were processed

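H3K4me1, H3K4me2 and IgG ChIP-seq reads were aligned with Subread and counted with featureCounts, per the submitters' processing notes (GRCm38/mm10, no versions). The deposited table holds raw read counts, 1 value per Entrez gene ID, in windows that its name gives as 5 kb around the start, without coordinates. Snai1 peaks were called with MACS2, per the submitters' processing notes; the deposited lists give each peak's fold enrichment and -log10 q. Of 27095 rows, 20 without a read and rows repeating an earlier one were left out, which left 27044 (439 members, 416 matched to RefSeq symbols). Members and lists were chosen with earlier results of these data known.

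CPM are on column totals. Counts were tested with edgeR 4.0.16 (R 4.3.3; quasi-likelihood, filterByExpr, Benjamini-Hochberg over all windows, two-sided, threshold 0.05). WT against mutant used TMM and all libraries of the mark; EV H3K4me1 replicates 2 and 3, which differed by no more than counting error, were summed. Mark contrasts used 14 WT, mutant and IgG libraries on column totals. DESeq2 1.42.0, scalings, a replicate block and left-out libraries were alternatives. Code was tested on simulated data. Same-numbered libraries of the 2 marks deviated together within a construct (correlations 0.419 to 0.69), those of WT and mutant did not in each pair (-0.183 to 0.277). Not every library went best with its own number. H3K4me2 replicate 3 went better with H3K4me1 replicate 2 (0.467 in WT, 0.496 in mutant cells) than with replicate 3 (0.419 and 0.448). Ratios by replicate follow the labelled numbers, which are not shown to pair the marks.

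Genes were named by rule: the 12 highest in H3K4me2 and in ratio, threshold neighbours, smallest p-values for WT against mutant (4 per direction), up to 3 per class, mark contrast extremes and the 6 beside the strongest WT peaks. Others named were chosen after their values were seen.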

Additional observations from a re-analysis of the deposited data

How the results depend on the processing

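The count of members moved with the scaling and the ratio: 1215 with TMM, 1716 at a ratio of 1.5 and 33 at a ratio of 3, against 411 to 490 with 1 replicate left out, 603 and 299 at 60 and 100 CPM, and 428 with replicates 2 and 3 averaged. Members passing WT against mutant numbered 0 to 198 in H3K4me2 with 1 library left out (198 without mutant replicate 1) and 366 with replicates 2 and 3 alone, and in H3K4me1 0 to 1 and 233. For the mark balance they numbered 0 to 32 (32 without replicate 1). With a replicate block no member passed WT against mutant in either mark or the mark balance (0 of 439), while over all windows 12 and 6 passed (0 without it), and with a batch term 22 and 30. Each mark contrast and H3K4me2 over IgG then passed for 439 members, 438 without it in WT cells, and the block moved no other count of members called. With 1 replicate left out the mark contrasts passed for 430 to 439 members in WT and 426 to 439 in mutant cells, and H3K4me2 over IgG for 432 to 438. Over all windows WT against mutant called 0, but in H3K4me2 71 with DESeq2, 2 with the 6 libraries alone, 247 without WT replicate 1, 4289 without mutant replicate 1 and 15022 with replicates 2 and 3 alone, and in H3K4me1 31 with DESeq2, 2 without WT replicate 1, 211 without mutant replicate 1 and 10145 with replicates 2 and 3 alone. The mark balance called 1409 windows without replicate 1, and the WT mark contrast 10036 without replicate 3 in place of 15986. Members near a peak numbered 29 (WT, 6.97%) and 121 (mutant, 29.1%) at a -log10 q of at least 10, against 2.91% and 13.0% of all windows. Fits with replicates 2 and 3 alone and with the block within a construct were added after seeing the data. Of 80 alternative values over members 70 were taken as unchanged: counts within 1.5 times or 0 in both fits, and promoter sequence medians within 1 SD. Many of these counts were 0 in both fits or close to all 439, where little change could show. Of 296 values of single members none changed direction. These members had the smallest p in each direction in these same data, so their kept direction is no check on other members. The cause of the shifts between settings was not tested. Depth limits single windows: the lowest member count was 37 in IgG, 95 in H3K4me1 and 502 in H3K4me2.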
